A study of Mus musculus with 6 samples.

Results

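The epidermal growth factor (EGF) receptor genes described here are 8 genes chosen by name: the receptor ligands Areg, Ereg, Hbegf, Tgfa, Btc and Epgn, the receptor Egfr and its feedback inhibitor Errfi1. Of these 8 genes, 3 are among the 637 genes of the authors' deposited table, namely Areg, Hbegf and Errfi1, and 5 are not listed. RNA of the hippocampus was sequenced in C57BL/6 mice aged 56 days, with no transgene or mutation in the labels. One group of 3 samples had focal ischemia by middle cerebral artery occlusion (MCAO), a stroke model that blocks a main artery of the forebrain, and the other group of 3 samples had a sham operation, the surgical control. Both groups are titled 2 h, which the titles do not define further. The labels do not say whether the samples of a group came from separate animals, so the spread between samples may be technical. The authors' test is not given in these sources, so how their p-values take account of that spread is not known.

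The EGF receptor is a membrane tyrosine kinase. Its ligands are made as membrane-anchored precursors that proteases cut loose, and a bound receptor drives the RAS and ERK kinase cascade, which switches on immediate-early genes. Errfi1, also known as MIG6, is one of the genes induced by this signalling; its protein binds the kinase domain of the EGF receptor, shuts it down and promotes its uptake, so it acts as a brake. In the brain the ligands and the receptor are made by neurons and glia.

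For each gene the authors give the mean of normalised reads in either group, the log2 fold change and p-values, with no standard deviation. The 2 columns of means are headed with the letters M and S, which were read as MCAO and sham, and every direction rests on that reading. The table lists only genes called at an adjusted p-value under 0.05, so a gene that is not listed has no level here, and the labelled tissue could not be checked against markers that did not change. An adjusted p-value computed over 28319 genes returned the deposited one in 636 of the 637 rows. Against that number, 2.25% of tested genes were called, 1.47% as higher and 0.784% as lower. All 3 listed genes of the EGF receptor group were higher in ischemia. Whether a bulk difference comes from more RNA per cell or more cells of a type cannot be told apart.

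Areg encodes amphiregulin, a ligand of the EGF receptor. It was scarce and rose steeply: the authors' deposited table gives 90.3 normalised reads in ischemia and 8.27 in sham, a 10.9-fold difference (log2 fold change 3.45, adjusted p = 0.00394). Each library adds a whole number of reads to a group mean, weighted by its size factor. Low means can therefore be split back into reads per library, and the split of Areg had 1 solution in each group. Areg had 92, 50 and 115 reads in ischemia libraries A, B and C, against 11, 11 and 5 reads in sham libraries A, B and C. The libraries are lettered by falling size factor and cannot be tied to the replicate numbers of the labels.

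Divided by size factors, Areg stood at 76.4, 56.9 and 137 normalised reads in ischemia libraries A, B and C, against 9.17, 9.94 and 5.72 in sham libraries A, B and C. The groups did not overlap, and the lowest ischemia library was 5.73-fold above the highest sham library. The means were 90.3 ± 42.0 normalised reads in ischemia and 8.27 ± 2.25 in sham (SD, n = 3 each). A two-sided exact permutation test over these libraries gave p = 0.10, the smallest that 3 against 3 allows. Areg is listed because these same libraries differed, so this outcome adds no support of its own. The groups also did not overlap in 100% of the 127 listed genes that split in 1 way in both groups, so this separation is shared by called genes at such levels. The ischemia value rests on 257 reads (exact Poisson 95% interval 227 to 290) and the sham value on 27 reads (17.8 to 39.3); these intervals cover counting error only.

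Ischemia library C held the highest Areg value and library B the lowest. Of 67 higher genes that split in 1 way in both groups, library C was the highest in 28, library B in 23 and library A in 16. The order C, A, B that Areg showed was found in 12 of these 67 genes (17.9%).

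Hbegf encodes heparin-binding EGF-like growth factor, a ligand of EGFR and ERBB4. Its rise was modest and lay close to the threshold: the authors' deposited table gives 691 normalised reads in ischemia and 416 in sham, a 1.66-fold difference (log2 fold change 0.73, adjusted p = 0.0446). By p-value it ranks 600 among the 637 listed genes in the authors' deposited table. Its sham mean split in 1 way, into 476, 519 and 334 reads in libraries A, B and C. These are 397, 469 and 382 normalised reads, so the 3 sham libraries lay close together, with an SD of 46.5 around a mean of 416.

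The ischemia mean of Hbegf had 4 possible splits, and the whole reads alone do not tell them apart. In 2 of them the groups did not overlap, with ischemia libraries at 558 to 814 or at 483 to 935 normalised reads against a highest sham library at 469. In the other 2 splits the ischemia libraries spanned 181 to 1146 or 151 to 1311 normalised reads and overlapped the sham libraries. In 100% of the 127 listed genes that split in 1 way in both groups, the groups did not overlap. Those genes are listed because these same libraries differed, and their means are at most 450 in each group. They therefore do not tell the 4 splits of Hbegf apart. Whether Hbegf is alike was not tested, and the values of its single ischemia libraries are not known.

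The ligands Ereg, Tgfa, Btc and Epgn and the receptor Egfr are not listed. Epiregulin, encoded by Ereg, is like Hbegf a ligand of EGFR and ERBB4, and so is betacellulin, encoded by Btc; the products of Tgfa and Epgn bind the EGF receptor. Their absence shows neither their level nor that they were alike in both groups. In the RefSeq order of genes of GRCm38.p6, Areg lies on chromosome 5 in a stretch of 12 protein-coding genes from Cxcl5 to Btc. The stretch also holds Epgn, Ereg and chemokine genes, and 3 of its genes are listed: Areg and the neutrophil-attracting chemokines Cxcl1 and Cxcl2. Over all tested genes 2.25% were called, 1.47% as higher. Areg was chosen by name and the stretch is described because it holds Areg, so this count is no test of the stretch. In the authors' deposited table Cxcl1 was at 59.1 normalised reads in ischemia and 7.80 in sham (adjusted p = 0.0095). For Cxcl2 the authors' deposited table has 31.8 normalised reads in ischemia, and the gene is listed at 0 for sham (adjusted p = 1.99e-07). Ereg and Epgn, which lie between Cxcl2 and Areg, and Btc, the next gene after Areg, are not listed.

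Errfi1, the brake, rose steeply as well. The authors' deposited table gives 23059 normalised reads in ischemia and 2667 in sham, an 8.64-fold difference (log2 fold change 3.11, adjusted p = 0.00196). Its values per library are not known: the sham mean alone allows 186 splits into whole reads. Ranked by fold among the 637 listed genes, Areg is at place 31, Errfi1 at 46 and Hbegf at 288. Under a Bonferroni correction over 28319 genes, 0 of the 3 genes kept an adjusted p-value under 0.05, and at an adjusted p-value under 0.01 Hbegf was no longer called. With a pseudocount of 10 added to both means, the log2 fold change of Areg was 2.46.

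**Figure D1:**
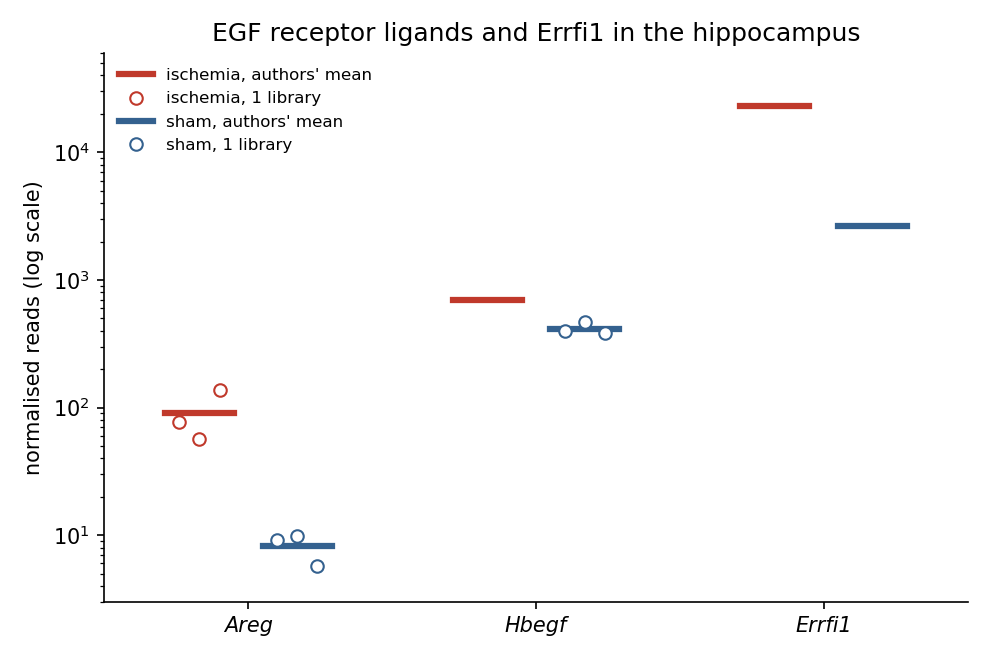
Normalised reads (log scale) of Areg, Hbegf and Errfi1, with ischemia left of sham for each gene; bars are the authors' group means and open circles single libraries where the mean split into whole reads in 1 way. The 3 ischemia libraries of Areg (56.9 to 137) lie above its 3 sham libraries (5.72 to 9.94); reads are not divided by transcript length, so levels of different genes are not compared here.

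Levels of different genes can be set side by side per length of transcript, here the joined exons of GENCODE M21, which is not the annotation the authors counted. Per kilobase, Errfi1 was at 6437 normalised reads in ischemia and 745 in sham. Hbegf was at 143 normalised reads per kilobase in ischemia and 86.0 in sham. Areg was at 74.3 normalised reads per kilobase in ischemia and 6.81 in sham. The level of Errfi1 per kilobase was thus 45.0-fold that of Hbegf in ischemia and 8.66-fold in sham. The level of Hbegf per kilobase was 1.92-fold that of Areg in ischemia and 12.6-fold in sham. Within single libraries the last of these ratios was 10.9, 11.9 and 16.8 in sham libraries A, B and C. The other ratios have no error, as the spread of Errfi1 and of the Hbegf ischemia libraries is unknown.

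Each gene was set beside the listed genes of similar sham level. Among listed genes with a sham mean within 2-fold of that of Errfi1, 117 were higher and 78 lower in the authors' deposited table; the median rise was 1.71-fold, and 3 genes rose by more than Errfi1. Around Hbegf, 96 listed genes were higher and 71 lower, with a median rise of 2.13-fold and 70 genes that rose by more than Hbegf. Around Areg, 17 listed genes were higher and 0 lower, with a median rise of 7.22-fold and 4 genes that rose by more. The smallest rise among these was 4.91-fold around Areg, 1.44-fold around Hbegf and 1.37-fold around Errfi1, so a gene as scarce as Areg entered the table only with a large rise.

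**Figure D2:**
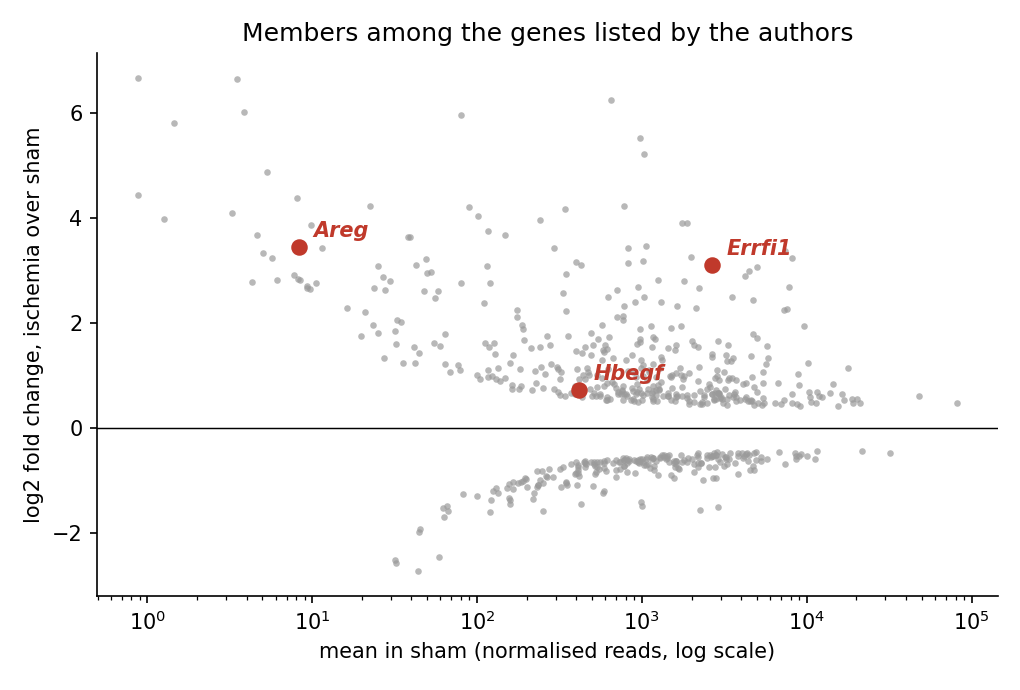
Log2 fold change of ischemia over sham against the mean in sham (normalised reads, log scale) for the listed genes above 0 in sham; each grey point is 1 gene of the authors' deposited table and red points are Areg, Hbegf and Errfi1. Areg (log2 fold change 3.45) lies among scarce genes, which are listed with large rises, Errfi1 (3.11) stands high among genes of its level and Hbegf (0.73) lies near the lower edge of the rises.

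The p-value of Errfi1 was moderate for its fold and level. There were 15 other listed genes with a log2 fold change within 0.5 of that of Errfi1 and an ischemia mean within 4-fold of it, a window chosen after the values were seen. Of these, 10 have a smaller p-value than Errfi1 and 5 a larger one in the authors' deposited table. They run from the orphan nuclear receptor gene Nr4a1 (p = 1.85e-94) to the small GTPase gene Arl5b (p = 4.03e-04), with Errfi1 at p = 1.65e-05 in the authors' deposited table. The gene Bdnf, which encodes the neurotrophin BDNF, is next to Arl5b (p = 3.82e-04 in the authors' deposited table).

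**Figure D3:**
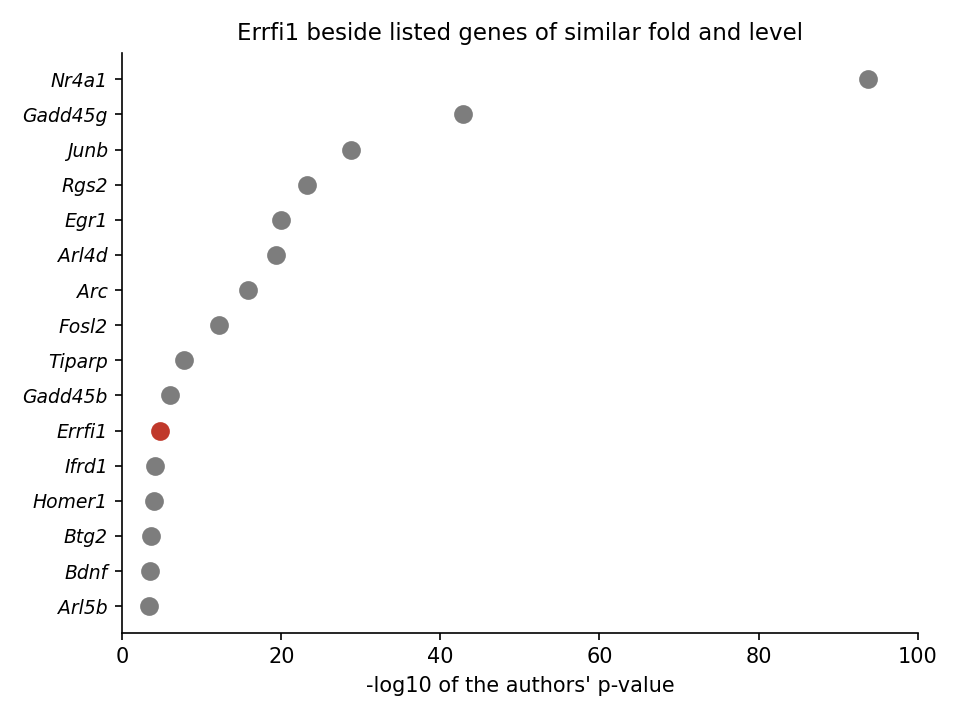
The -log10 of the authors' p-value for Errfi1 (red) and the 15 listed genes closest to it in fold and level (grey), sorted by p-value from the smallest at the top. There are 10 genes above Errfi1 and 5 below it.

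The listed genes nearest to Areg in log2 fold change, over 2 group means, were Rrad and Gadd45g above it and Cyr61 and Arl4d below it. Rrad encodes a small GTPase, Gadd45g a stress-induced growth arrest protein, Cyr61 a matrix-associated signalling protein and Arl4d an ADP-ribosylation factor-like GTPase. Their log2 fold changes differed from that of Areg by at most 0.19 in the authors' deposited table. Nearest to Errfi1 were Gadd45b and the transcriptional repressor gene Nfil3 above it, and the urokinase receptor gene Plaur and the GTPase gene Gem below it. They differed from Errfi1 by at most 0.04 in log2 fold change in the authors' deposited table. Nearest to Hbegf were Txndc11, a thioredoxin domain gene, and the ribosome maturation gene Sbds above it, and the myelin protein gene Pmp22 and the cell cycle regulator gene Heca below it, all with a log2 fold change of 0.73 in the authors' deposited table.

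The promoters of Areg and Errfi1 are shown because both genes rose and both windows hold the same pair of elements. A window runs from 250 bases before to 50 bases after a RefSeq transcription start (GRCm38.p6). The table of promoters holds 6 of the 8 genes, and Ereg and Hbegf are not in it. Capitals mark the cAMP response element (CRE), TGACGTCA, the motif bound by CREB-family factors, and the TATA element, TATAAA, at which the transcription machinery assembles. The Areg window is chr5:91139349-91139648 and the Errfi1 window is chr4:150854820-150855119, both on the plus strand.
Areg: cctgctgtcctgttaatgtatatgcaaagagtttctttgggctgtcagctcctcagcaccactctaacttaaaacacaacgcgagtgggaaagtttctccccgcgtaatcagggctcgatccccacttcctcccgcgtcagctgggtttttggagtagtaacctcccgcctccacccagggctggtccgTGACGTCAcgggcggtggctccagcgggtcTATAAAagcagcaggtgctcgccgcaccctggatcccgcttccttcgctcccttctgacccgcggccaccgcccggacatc
Errfi1: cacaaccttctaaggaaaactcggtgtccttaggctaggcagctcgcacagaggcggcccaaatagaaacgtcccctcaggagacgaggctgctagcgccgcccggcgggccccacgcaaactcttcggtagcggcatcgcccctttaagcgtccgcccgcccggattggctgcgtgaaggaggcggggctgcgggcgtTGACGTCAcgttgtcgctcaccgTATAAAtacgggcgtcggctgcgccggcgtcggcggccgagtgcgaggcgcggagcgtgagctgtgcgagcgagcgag

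In Areg the CRE begins 61 bases before the start and TATAAA begins 31 bases before it, so their first bases are 30 bases apart. In Errfi1 the CRE begins 51 bases and TATAAA 28 bases before the start, which puts them 23 bases apart. A second Errfi1 window, at an upstream start, holds neither element. The windows of Egfr, Tgfa, Btc and Epgn hold no CRE, which says only that these letters are not in those windows. The windows of Epgn and Btc, which are not listed, hold its core TGACG, and in Epgn TATAAA follows. The Areg and Errfi1 windows hold this core within the CRE, and Areg once more further upstream.

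The CRE was rare among promoters. Searched on both strands, TGACGTCA lies in 1.79% of all 32851 windows. Counted by gene, 31 of 277 genes called higher that are in the table of promoters hold it (11.2%), against 1 of 151 genes called lower (0.662%) and 549 of all 27025 genes (2.03%). From the authors' deposited table, the median rise of the 31 higher genes with a CRE was 2.48-fold. The core of the motif, TGACG, which every CRE contains on both strands, was found in 57.4% of the higher genes, 27.2% of the lower genes and 23.0% of all genes. The median content of G and C was 61.7% in windows of higher genes, 61.2% in those of lower genes and 52.7% in all windows, and the part of base composition in these shares was not tested. The window printed for Areg has 59.3% G and C and that for Errfi1 66.7%.

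Other motifs searched were the AP-1 motif, the CArG box, bound by serum response factor, the NF-kappaB motif and the glucocorticoid response element (GRE). The AP-1 motif was searched as TGANTCA, a wide form with any base at N. None of these other motifs was found in the windows of Areg or Errfi1, and the NF-kappaB motif was found in that of Tgfa. TGANTCA lies in 7.22% of higher genes, 7.28% of lower genes and 8.97% of all genes. The shares of the CArG box were 2.89%, 0.662% and 1.81% in the same order, and those of the NF-kappaB motif 17.3%, 11.3% and 9.55%. The GRE was found in 0.722% of higher, 0.662% of lower and 0.537% of all genes. TATAAA, searched on the strand of the gene, lies in 13% of higher, 5.30% of lower and 9.77% of all genes. It is also present in the window of Epgn. A match is a stretch of letters and not a measured binding site.

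**Figure D4:**
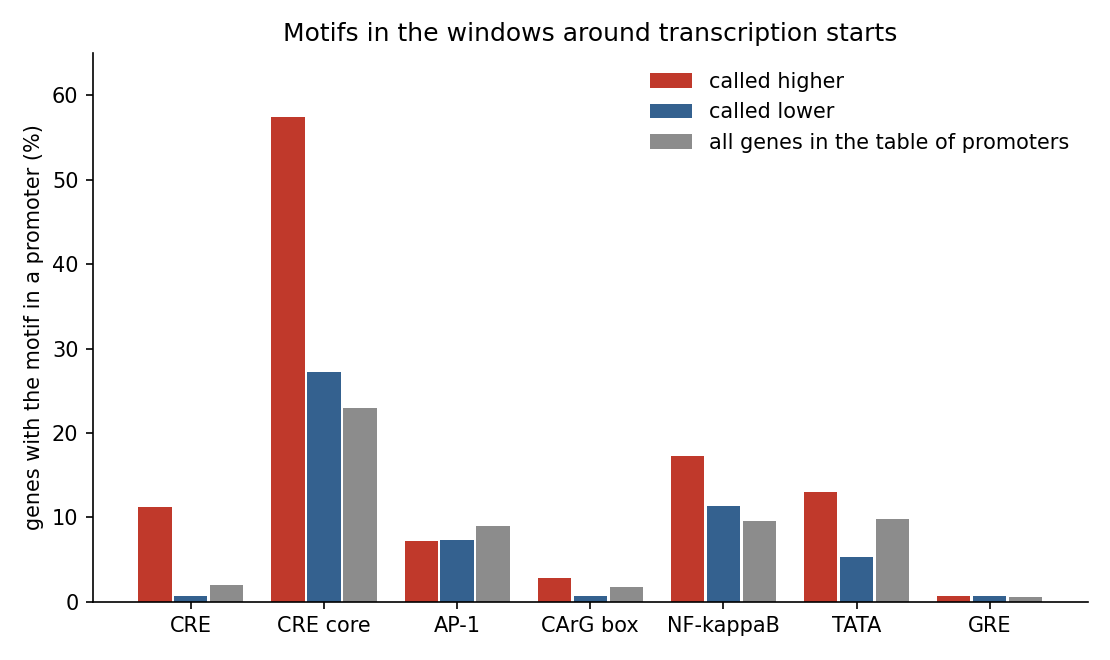
Share of genes (%) with each motif in a window around a transcription start, for genes called higher (red), called lower (blue) and all genes in the table of promoters (grey). The CRE, which Areg and Errfi1 hold, lies in 11.2% of higher genes, 0.662% of lower genes and 2.03% of all genes.

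The rest of the pathway was read from 8 lists of genes, chosen with earlier results of these data known. Beside the 2 called ligands, Egf, the founding ligand of the family, is not listed. Of 8 ERBB receptors and neuregulins, and of 11 genes of ligand shedding, among them the sheddase Adam17, 0 were called. The share over all tested genes, beside which these and the following counts stand, was 2.25% called, 1.47% as higher and 0.784% as lower. At that share, 0 calls in lists this short do not show that these genes were unchanged.

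Of 15 genes that restrain receptors, 2 rose, 1 fell and 12 are not listed. Beside Errfi1, the authors' deposited table holds Socs3, a cytokine-induced feedback inhibitor, at 542 normalised reads in ischemia and 80.0 in sham (6.77-fold, adjusted p = 6.23e-34). Ptprj, a receptor phosphatase that can dephosphorylate the EGF receptor, has 2084 normalised reads in ischemia and 2840 in sham there, as the authors' deposited table gives them (1.36-fold lower, adjusted p = 0.0481). The ubiquitin ligases Cbl and Cblb and the LRIG inhibitors are not listed.

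Feedback inhibitors further down the ERK pathway numbered 19, of which 5 rose and 0 fell; the median rise was 3.02-fold. The called genes were the phosphatase genes Dusp1, Dusp5, Dusp6 and Dusp16 and the Sprouty gene Spry2. In the authors' deposited table Spry2 had 5626 normalised reads in ischemia and 1498 in sham. Errfi1 rose by more than each of these: its log2 fold change of 3.11 compares with 2.40 for Dusp1, the largest of the 5, in the authors' deposited table, a difference that has no test. Of 25 immediate-early genes that ERK signalling can induce, 20 rose and 0 fell, with a median of 6.97-fold. Errfi1 and Areg lay above that median and Hbegf below it. The authors' deposited table gives Maff, a small Maf factor, 1574 normalised reads in ischemia and 117 in sham (adjusted p = 9.55e-42).

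Among 27 other growth factors and ligands, 2 rose. In the authors' deposited table Lif, a cytokine of the interleukin-6 family, stands at 122 normalised reads in ischemia and 41.7 in sham (adjusted p = 6.37e-04). For Bdnf the authors' deposited table gives 14342 normalised reads in ischemia and 2231 in sham (adjusted p = 0.0233). Errfi1 is also induced by glucocorticoids. Of 16 such genes, Errfi1 included, 11 are not listed, 0 fell and 5 rose, with a median of 2.96-fold over these 5. They are Errfi1, the clock gene Per1, the kinase gene Pdk4, the cell cycle inhibitor gene Cdkn1a and the kinase gene Sgk1. Fkbp5, Tsc22d3, Zbtb16, Mt1 and Mt2 are among the 11 that are not listed. For comparison, the median log2 fold change was 0.66 over all listed genes, 1.07 over the higher and -0.68 over the lower ones.

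**Figure D5:**
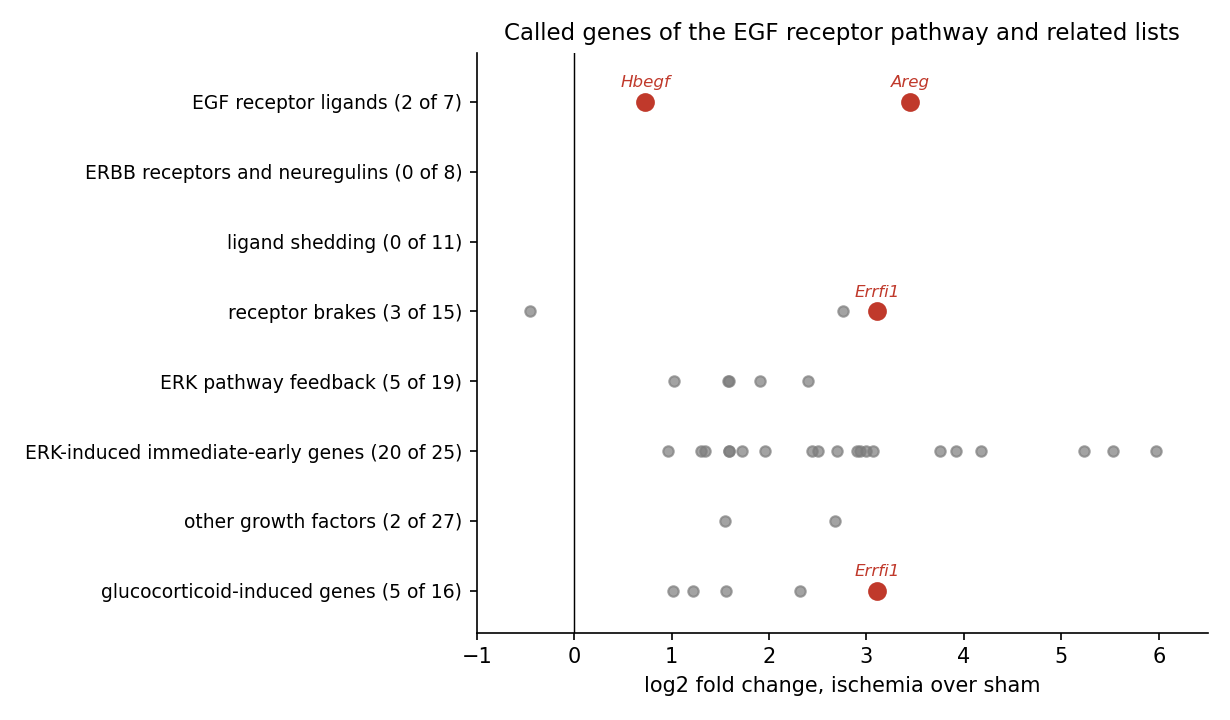
Log2 fold change of ischemia over sham for the called genes of 8 lists, 1 point per gene, with the called and the total number of genes beside each list; red points are Areg, Hbegf and Errfi1. The 2 called ligands lie at 3.45 and 0.73, and Errfi1 lies at 3.11. In the receptor and shedding lists 0 genes were called, against 2.25% of all tested genes.

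Markers of cells that could carry these transcripts were called in part. Over all tested genes 2.25% were called, 1.47% as higher and 0.784% as lower. In lists this short, 0 or 1 call is thus no result about a cell type. Of 11 astrocyte markers and of 12 choroid plexus and meningeal markers, 0 were called. Blood leukocyte markers numbered 13, of which the neutrophil genes S100a8 and S100a9 rose. The gene S100a9 was at 59.6 normalised reads in ischemia and 4.64 in sham, per the authors' deposited table. There, S100a8 was at 71.1 normalised reads in ischemia and 10.5 in sham, again as given in the authors' deposited table. Of 13 endothelial markers 1 fell, Sox18 (by 1.11 on the log2 scale in the authors' deposited table). Of 17 markers of hippocampal neurons 0 rose and 4 fell: Lct, Dsp, Neurod1 and Neurod2. The other 13, among them the general neuron markers Rbfox3, Snap25 and Syt1, are not listed. The marker lists too were chosen with earlier results of these data known. The part of these cell types in the rises of Areg, Hbegf and Errfi1 was not tested.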

How the data were processed

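The members and gene lists were chosen with earlier results of these data known. The submitters' processing notes name Bowtie 0.12.2 and mm8 and state no role for them; counting, strand use, normalisation and test are not given in these sources. Per the file headers and identifiers, genes carry a BALB/cJ Ensembl prefix in 612 rows and another in 25. The deposited signal per gene is a mean normalised read count of a group, made by the authors. The deposited log2 fold change equals the log2 ratio of the means within 4.97e-05, without a pseudocount. The p-value and adjusted p-value are the authors' own, and no test across genes was refitted: the planned models need values per sample, and 0 columns hold them.

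Whole reads per library were recovered from the 12 lowest means of each group by lattice reduction, which gave 1 set of size factors per group, from 0.837 to 1.20. Means of at most 450 split in 1 way in 144 of 172 cases in ischemia and 192 of 195 in sham, and 0 had no split. Size factors give relative depth only; the depth of a library is unknown. The split of means of at most 450 and the number of tested genes were tried on simulated data, with no outcome given here. The ischemia mean of Hbegf, 691, lies above that range. Genes named are the members, up to 4 called genes of each list with the smallest p-values and, for each member, the 2 listed genes next above and below in fold; further genes were chosen after their values were seen. One planned gene list is not reported here. Of 43 listed genes that the rule takes or the text names, Atf3 and Fos being taken and not described, 42 have exons in GENCODE M21, and 9 share exon bases with another gene: Bdnf, Cdkn1a, Dsp, Dusp1, Dusp5, Neurod1, Ppp1r15a, Rrad and Txndc11, whose values are uncertain where strand was not used. Areg, Hbegf and Errfi1 share none. Promoters are from RefSeq (GRCm38.p6). Alternatives were other thresholds, filters, pseudocounts and a centring, and single libraries left out. Tools were Python 3.11.15, numpy 2.4.6, scipy 1.17.1, sympy 1.14.0 and matplotlib 3.10.9.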

Additional observations from a re-analysis of the deposited data

How the results depend on the processing

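The values are the authors' calls and means, so other settings could only remove calls. Of the 3 members, 2 (Areg and Errfi1) were left at an adjusted p-value under 0.01 and where the log2 fold change had to reach 1 in size, and 3 with a mean of at least 50. Under a Bonferroni correction 0 members were left, the lowest corrected p being 0.467 for Errfi1. The 637 genes called became 361 at an adjusted p-value under 0.01, 159 under Bonferroni and 271 with the fold filter, where the share of higher genes moved to 72.9%, 84.9% and 82.3%, against 65.1% of all listed genes. The log2 fold change of Areg moved from 3.45 to 2.46 with a pseudocount of 10, since its sham mean is 8.27. Centred on the median of the listed genes, which are a selection, the log2 fold changes were 2.79 for Areg, 2.45 for Errfi1 and 0.07 for Hbegf. Without single libraries, Areg lay between 3.01 (without ischemia library C) and 3.69 (without ischemia library B). Without single sham libraries, Hbegf lay between 0.67 and 0.83. No paired analysis was possible because the table holds group means and the recovered libraries carry no replicate number.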

Other observations

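A CRE followed by TATAAA on the strand of the gene, with first bases at most 60 bases apart, was searched for after the windows of Areg and Errfi1 had been seen, so these genes are no test of it. It was found in 14 of 27025 genes (0.0518%). Of the 14 genes, 3 are listed, all as higher: Areg, Errfi1 and Ppp1r15a, which encodes a phosphatase subunit of the integrated stress response. Over all tested genes 2.25% were called, 1.47% as higher. Beyond Areg and Errfi1, from which the pattern was taken, only Ppp1r15a is listed. In the authors' deposited table Ppp1r15a was at 2230 normalised reads in ischemia and 570 in sham (3.92-fold, adjusted p = 8.51e-18). The other 11 genes are not listed, among them the receptor gene Flt1, the long noncoding RNA Meg3 and the tubulin gene Tubb2a.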
